A study of Macaca mulatta with 5 samples.

Results

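A set of 10 striated muscle genes was followed through a rhesus macaque stem cell culture directed towards serotonin neurons. They are the troponin genes TNNT1, TNNT3, TNNI2, TNNC1 and TNNC2, the alpha-actinin genes ACTN2 and ACTN3, and MYBPH, TTN and CKM. These 10 of 14132 named genes were picked by symbol with their signals on these arrays already known, so their values are given as a description, and no statistical test was made. All 10 had at least 1 probe set, and together they had 18.

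The cells were embryonic stem cells of the single line 366.4, and the labels give 5 stages with 1 array each. ESC were undifferentiated cells at passage 13 on a layer of mouse embryonic fibroblasts. EB were embryoid bodies collected after 6 to 8 days. N1 were neurospheres after 7 to 9 days of selection in DMEM/F12 with N2 supplement, and N2 were cells grown for a further 7 to 9 days with FGF4 added. N3 were cells kept for maturation without FGF4 in wells that the labels call GFR reduced. No group carries a genetic change in the labels. With 1 array a stage there is no replicate spread to judge a difference by. In RNA from a whole culture, fewer cells of a type cannot be told apart from less RNA per cell.

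Skeletal and heart muscle contract when calcium reaches the thin filament of the sarcomere. There it binds troponin C, troponin I releases its hold on the actin filament, and troponin T passes the change on to tropomyosin. Fast skeletal, slow skeletal and heart muscle use different genes for these subunits, and developing muscle can express several of them together. Alpha-actinins tie actin filaments together at the Z-disc, titin spans the sarcomere as a spring, and muscle creatine kinase buffers ATP.

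Signals are array intensities rescaled so that the mean of each array, with 2% trimmed from each end, was 500. A signal of 100 or less was treated as background, and a ratio with 1 side at that floor is a lower bound, written "at least". Of 59 probe sets for foreign reporter genes, 4 reached the floor in ESC, 0 in N2 and 1 on each of the other arrays, and the highest signal among them was 189.9, in ESC. The arrays differed in how far the 5′ ends of transcripts were represented. The 3′ to 5′ signal ratio of the actin control was 1.73 in ESC, 15.2 in EB, 5.43 in N1, then 25.2 in N2 and 8.63 in N3, and that of GAPDH was 1.94, 2.78, 1.69, 7.1 and 2.1 in the same order. N2 therefore had the highest ratio for both controls, and its part in the differences below was not tested.

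Among the fast skeletal troponin genes, TNNC2 and TNNI2 were highest in N3 by over 2-fold, while TNNT3 was about level in N3 and ESC. TNNC2, the calcium-binding subunit of fast muscle, had a signal of 486 in ESC, 53.9 in EB, 14.8 in N1, then 354 in N2 and 3537 in N3. It was thus above background in the stem cells, below it in EB and N1, and highest in the matured cells, 9.99-fold above N2 and 7.28-fold above ESC. The N3 over N2 difference of TNNC2 was the largest upward one among 10401 genes measured in that comparison, where genes bounded by the floor entered at their bound.

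TNNI2, the inhibitory subunit of fast muscle, gave 13.1 in ESC, 8.1 in EB, 10.4 in N1, then 43.1 in N2 and 438 in N3. Its signal passed background in N3 alone, where it was at least 4.38-fold above each other stage. TNNT3, the tropomyosin-binding subunit of fast muscle, gave 235 in ESC, 15.6 in EB, 179 in N1, then 29.2 in N2 and 249.6 in N3 on the probe set with the higher mean signal. N3 was at least 2.5-fold above N2 and at least 2.5-fold above EB, but 1.06-fold above ESC and 1.4-fold above N1. That probe set is of a kind that can bind related transcripts. The other TNNT3 probe set gave 132 in ESC, 24.5 in EB, 8.5 in N1, then 40.2 in N2 and 198 in N3. The 2 probe sets differ most in N1, where the first lay above the floor and the second below it.

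**Figure D1:**
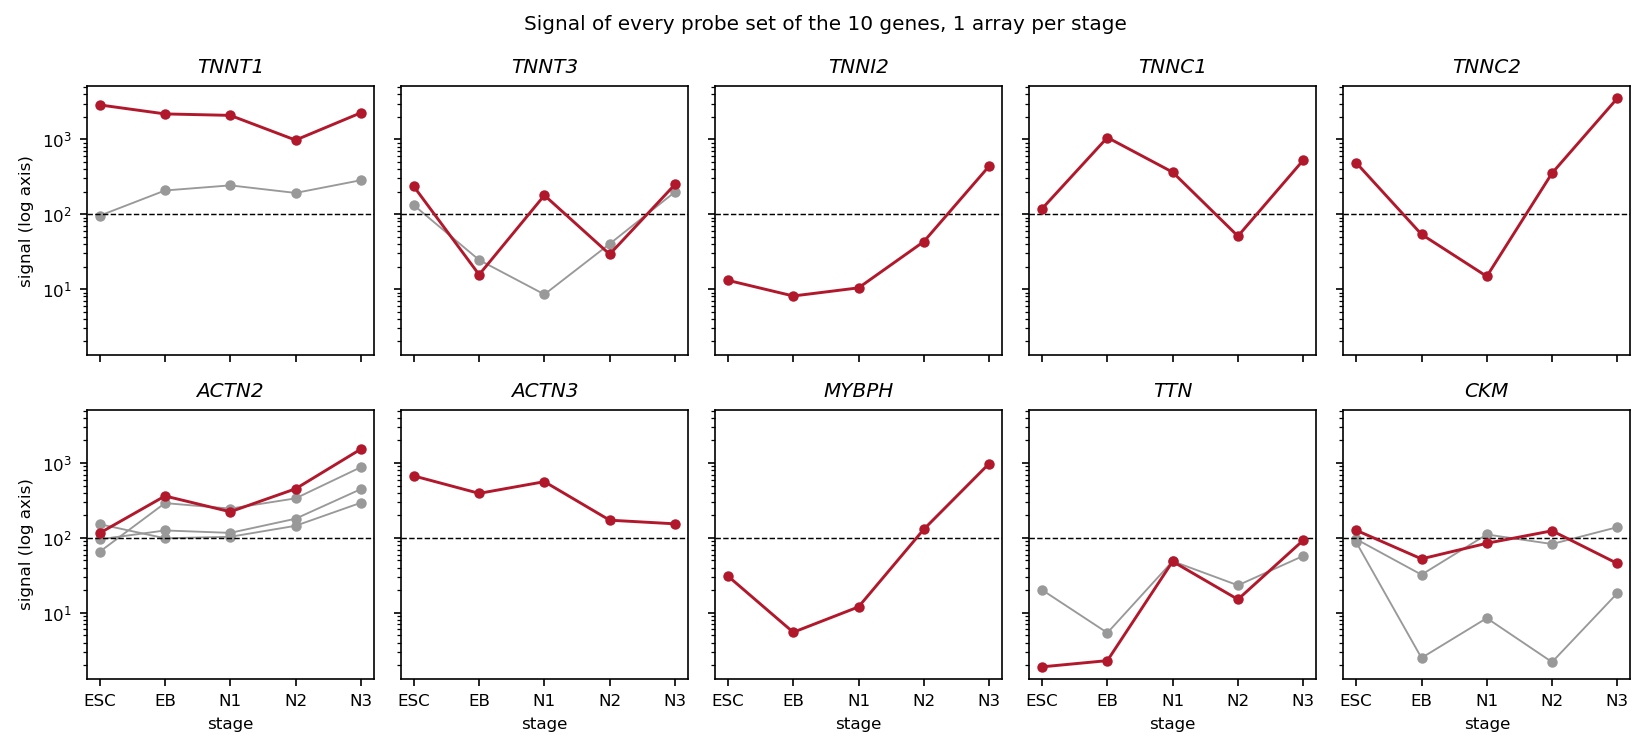
Signal (log axis) of all 18 probe sets of the 10 genes at the 5 stages, 1 array each. Red marks each gene's brightest probe set (by mean log2 signal), grey the others, and the dashed line the floor of 100; heights are not comparable between probe sets. TNNI2, TNNC2, ACTN2 and MYBPH peak in N3, whereas both TTN probe sets stay under the floor.

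The slow muscle troponins did not share one pattern. TNNC1, the calcium-binding subunit of slow skeletal and heart muscle, gave 119 in ESC, 1058 in EB, 364 in N1, then 51 in N2 and 526 in N3. It was highest in EB, 2.01-fold above N3, and its ESC signal lay under the brightest foreign reporter on that array, so no exact fold over ESC is given. Its N3 signal was at least 5.26-fold above N2 but 1.45-fold above N1.

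TNNT1, the tropomyosin-binding subunit of slow skeletal muscle, gave 2879 in ESC, 2185 in EB, 2089 in N1, then 977 in N2 and 2260 in N3. It was above background at every stage, and N2 was the low point, while the other 4 arrays lay between 2089 and 2879. N3 was 2.31-fold above N2 and 1.08-fold above N1. The dimmer TNNT1 probe set gave 95.6 in ESC, 208 in EB, 243 in N1, then 193 in N2 and 284 in N3. It put ESC lowest and N3 highest, so the probe sets disagree on the direction between ESC and N3, with log2 ratios of N3 over ESC of -0.35 and at least 1.51.

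Troponin genes outside the 10 are set beside them. TNNI1, the slow skeletal inhibitory subunit, gave 174 in ESC, 867 in EB, 1185 in N1, then 406 in N2 and 2239 in N3. The heart gene TNNT2 gave 138, 3926, 1759, 864 and 2487 in the same order, and the heart gene TNNI3 gave 564, 407, 492, 188 and 241. TNNT2 and TNNC1 both had their highest signal in EB, a dip in N2 and a higher signal in N3, while TNNI3 was highest in ESC. A second TNNI1 probe set stayed below the floor at all stages, as did 1 of the 3 TNNT2 probe sets.

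**Figure D2:**
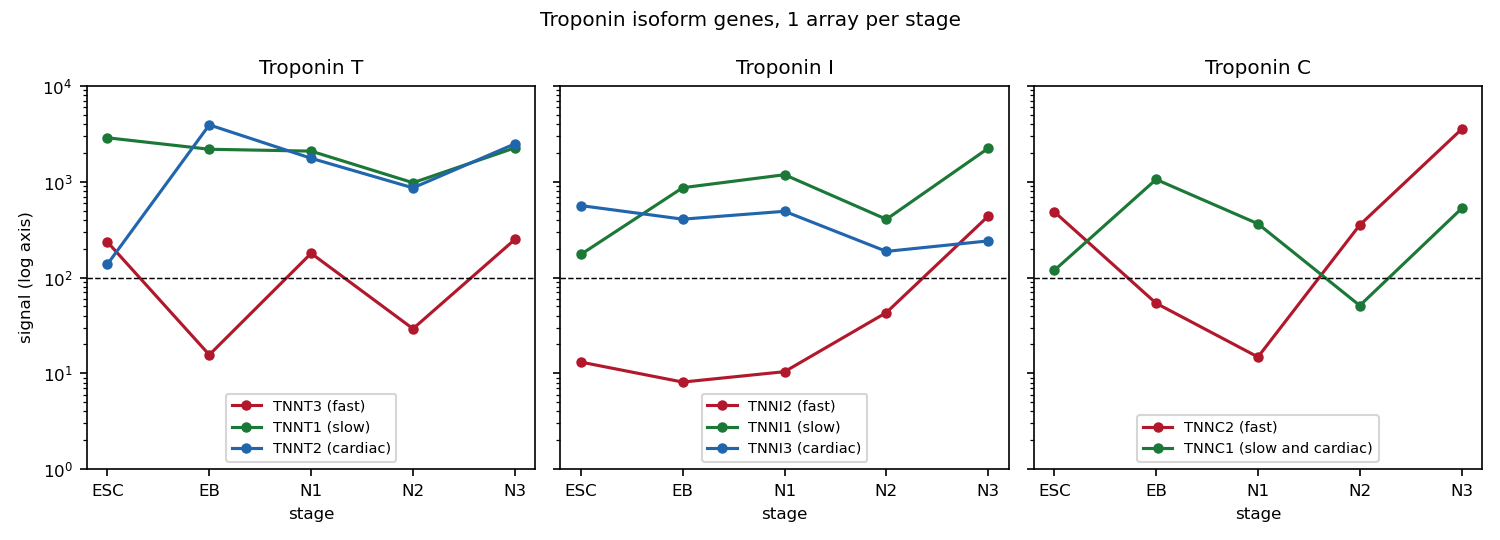
Signal (log axis) of the troponin T, I and C genes at each stage, 1 array per stage, for each gene's brightest probe set (by mean log2 signal); the dashed line is the floor of 100. The fast genes TNNI2 and TNNC2 reach 438 and 3537 in N3, while TNNC1 and TNNT2 peak in EB at 1058 and 3926.

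The 2 alpha-actinin genes had opposite patterns between ESC and N3. ACTN2, the form of heart and all skeletal fibres, gave 116 in ESC, 363 in EB, 223 in N1, then 453 in N2 and 1533 in N3. N3 was 3.39-fold above N2, 6.86-fold above N1 and 4.23-fold above EB. The ESC signal lay under the brightest foreign reporter on that array, 189.9, so no exact fold over ESC is given. All 4 ACTN2 probe sets were highest in N3 and at least 2-fold above N2 there, by 2.03-fold to 3.39-fold, with N3 signals of 295, 448, 879 and 1533.

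ACTN3, the form of fast skeletal fibres, gave 673 in ESC, 393 in EB, 564 in N1, then 173 in N2 and 154 in N3 on its single probe set. N2 and N3 were the lowest stages and differed by 1.12-fold, and N3 was 4.36-fold below ESC and 3.66-fold below N1. The alpha-actinins of non-muscle cells, named after their values were seen, were also highest in ESC. ACTN1 gave 599 in ESC and 312 in N3, and ACTN4 gave 2132 in ESC and 855 in N3.

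MYBPH encodes myosin-binding protein H, a thick filament protein of skeletal muscle. Its signal was 30.9 in ESC, 5.5 in EB, 12 in N1, then 130.4 in N2 and 982 in N3. It passed background in N2 and N3 only, and N3 was 7.53-fold above N2 and at least 9.82-fold above each earlier stage. Its N3 over N2 difference ranked 3 among the 10401 measured genes.

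TTN and CKM gave little signal. The TTN probe sets reached at most 93 and 57.5, both in N3, and so lay below the floor on all 5 arrays. No ratio is given for this gene. The 3 CKM probe sets had their highest signals at 126.5 in ESC, 139 in N3 and 87.4 in ESC. The probe set used for CKM gave 126.5 in ESC, 52.5 in EB, 84.8 in N1, then 124.5 in N2 and 45.6 in N3, so it passed the floor in ESC and N2 only and none of its bounds reached 2-fold. The brightest foreign reporter gave 189.9 in ESC, 105 in EB, 105.1 in N1, then 82.3 in N2 and 112 in N3. The highest CKM signal was below it in ESC and EB and above it in N1 (111), N2 (124.5) and N3 (139), by less than 2-fold and not on the same probe set each time.

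Set against the stage before, the 10 genes differed most in the last step. In N3 over N2, 9 were measured, meaning over the floor on 1 or both arrays, and 4 of those ratios were bounds. TNNT1, TNNT3, TNNI2, TNNC1, TNNC2, ACTN2 and MYBPH, 7 of the 10, were at least 2-fold higher in N3 and 0 were lower. On their dimmer probe sets, TNNT1 was 1.48-fold and TNNT3 at least 1.98-fold higher. Of all 10401 measured genes, 4.78% were at least 2-fold higher and 2.19% lower. The median log2 ratio of the 9 was 1.76, beside -0.02 for all measured genes. The SD between probe sets of one gene was 0.43 on the log2 scale in this comparison, and ACTN3 at -0.16 lay within it. It measures disagreement between probe sets on the same arrays and holds no variation between arrays or cultures. CKM passed from just over the floor to below it, a bound of -0.32, but another of its probe sets went the other way, from 82.9 to 139, and the sign also turned under 3 alternatives. The genes were chosen with these ratios known, so the counts describe them and support nothing further.

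Because N2 had the highest 3′ to 5′ ratios, N3 was also set against N1, a comparison chosen after the data were seen. Over N1, 4 of the 10 genes were at least 2-fold higher and 1 lower, beside 8.42% and 6.67% of 10652 measured genes. TNNI2 (at least 4.38-fold), TNNC2 (at least 35.4-fold), ACTN2 (6.86-fold) and MYBPH (at least 9.82-fold) stayed above 2-fold. TNNT1, TNNT3 and TNNC1 were within 1.45-fold of N1 on the probe sets used, and ACTN3 was lower. On their dimmer probe sets, TNNT1 was 1.17-fold and TNNT3 at least 1.98-fold above N1. The same 4 genes were at least 2-fold higher in N3 than on each of the other 4 arrays, which held for 1.72% of 11642 genes that passed the floor on any array. Another ACTN2 probe set, at 152 in ESC and 295 in N3, was under 2-fold apart between those arrays.

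In the steps before N3 the genes were mixed. In EB over ESC, 7 were measured, with 2 at least 2-fold higher (TNNC1 and ACTN2) and 2 lower (TNNC2, at least 4.86-fold, and TNNT3, at least 2.35-fold), beside 12.1% and 11.8% of all measured genes. Their median log2 ratio was -0.40, and that of all measured genes -0.06. The ACTN2 probe sets disagreed here in direction. Their ESC signals, and that of TNNC1, lay under the brightest foreign reporter on that array, so no exact ratios are given. The labels name mouse feeder cells for ESC alone, and their share of the ESC signal of TNNC2, TNNT3, TNNT1 or ACTN3 was not tested. The list of 11 smooth muscle and fibroblast genes on the array had a summed signal of 109801 in ESC and 22558 to 48485 at the other stages. In N3 over ESC, 8 of the 11 were at least 2-fold lower, beside 16.4% of all measured genes. COL1A1 was the 1 higher gene (4635 in ESC and 20539 in N3), beside 17.2%.

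In N1 over EB, 5 genes were measured. TNNC1 was 2.91-fold lower, 0 were at least 2-fold higher, and 5.15% of all measured genes were higher and 2.20% lower. The median log2 ratio was -0.06 for the 5 and -0.02 for all. In N2 over N1, 8 were measured. TNNC2 (at least 3.54-fold) and ACTN2 (2.03-fold) were higher and TNNT1 (2.14-fold), TNNC1 (at least 3.64-fold) and ACTN3 (3.27-fold) lower, beside 5.06% and 6.53% of all genes. The median log2 ratio was -0.26 for the 8 and -0.04 for all. The other 3 ACTN2 probe sets gave 1.37-fold to 1.55-fold in that step.

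In N3 over ESC, which shares the N3 array with the last step, 9 genes were measured and 5 were at least 2-fold higher, beside 17.2% of all measured genes. These were TNNI2, TNNC1, TNNC2, ACTN2 and MYBPH. ACTN3 was the 1 lower gene, beside 16.4% of all genes, and TNNT1 and TNNT3 were within 1.27-fold on the probe sets used. The dimmer TNNT1 probe set was at least 2.84-fold higher in N3, and the dimmer TNNT3 probe set gave 132 in ESC and 198 in N3. The median log2 ratio of the 9 was 2.13, beside -0.13 for all measured genes. Over EB, a comparison chosen after the data were seen, 5 genes were at least 2-fold higher in N3 and 2 lower. The shares of 10498 measured genes were 13.0% and 11.2%.

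**Figure D3:**
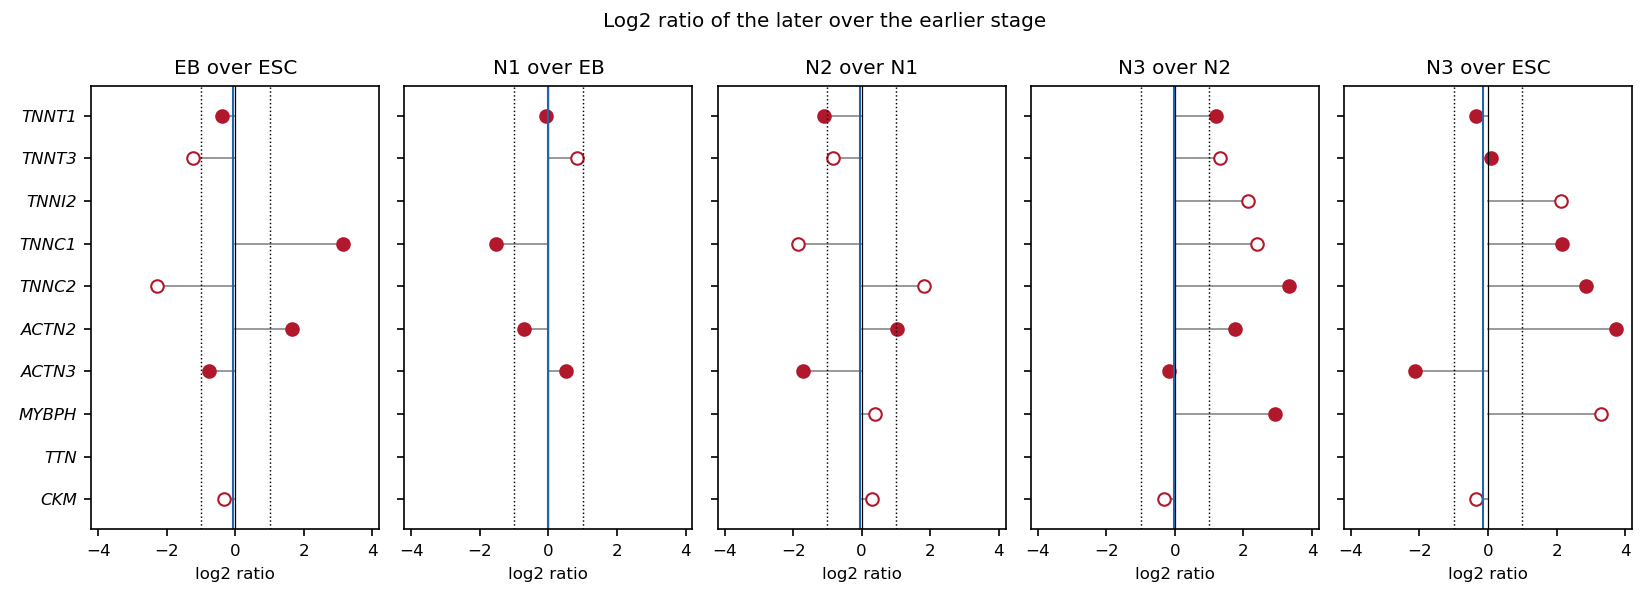
Log2 ratio of the later over the earlier stage for the 10 genes in 5 comparisons, 1 array per stage. Open circles are lower bounds with 1 side at the floor, genes without a point were at or below the floor on both arrays, dotted lines mark 2-fold and the blue line the median of all measured genes. In N3 over N2, 7 points lie beyond 2-fold to the right and 0 to the left.

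Other sarcomere genes were taken from a list of 40, of which 32 had a probe set. In N3 over N2, 27 were measured, 14 were at least 2-fold higher and 0 lower, beside 4.78% and 2.19% of all measured genes, with a median log2 ratio of 1.00. TNNI1 was 5.52-fold higher, the embryonic skeletal myosin gene MYH3 4.84-fold (2905 in N2 and 14054 in N3), the atrial and embryonic light chain gene MYL4 4.69-fold, the perinatal skeletal myosin gene MYH8 4.26-fold, the fast skeletal light chain gene MYL1 4.05-fold (2974 and 12049) and CSRP3, a Z-disc protein gene, 3.96-fold. A second CSRP3 probe set stayed below the floor throughout.

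MYH3 and MYL1 were already higher in N2 than in N1, at 2905 against 103 and at 2974 against 188, where the MYH3 signal in N1 was under the brightest foreign reporter, whereas TNNI2 was still below the floor in N2 and MYBPH reached 130.4 there. In N2 over N1 the list had 4 higher members (MYH3, MYL1, MYH8 and MYOT) and 3 lower (MYL3, MYL4 and TNNI1) of 27 measured, beside 5.06% and 6.53% of all genes. Of the listed genes, 9, namely MYH3, MYH8, MYL1, MYBPC1, MYOZ2, MYOM2, MYOT, LMOD3 and CSRP3, were at least 2-fold higher in N3 than at each other stage, as TNNI2, TNNC2, ACTN2 and MYBPH were and as 1.72% of all genes above the floor were.

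**Figure D4:**
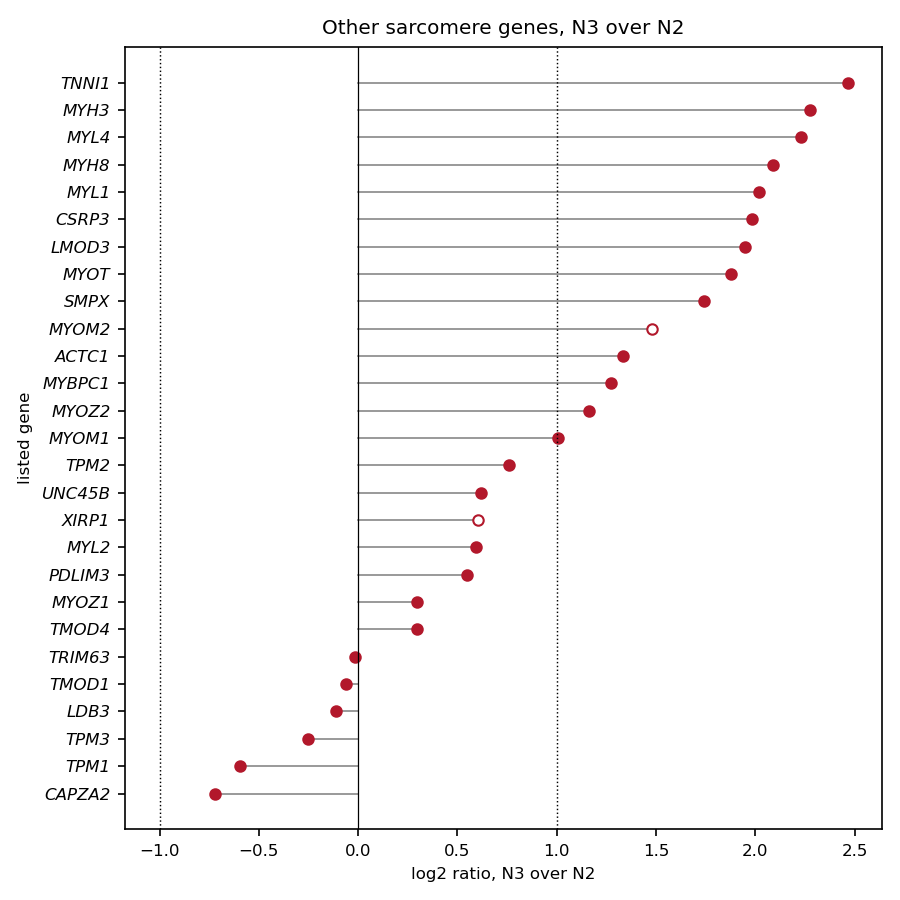
Log2 ratio of N3 over N2 for the 27 measured genes of the list of other sarcomere genes, 1 array per stage. Open circles are lower bounds and dotted lines mark 2-fold; 14 genes lie beyond 2-fold to the right, led by TNNI1 at 2.46, and 0 beyond it to the left.

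Among 11 muscle regulators with a probe set, 8 were measured in N3 over N2, 2 were at least 2-fold higher and 0 lower (4.78% and 2.19% of all measured genes), with a median of 0.06. MYOD1, the transcription factor that commits cells to muscle, gave 18.4 in ESC, 14.2 in EB, 13.1 in N1, then 221 in N2 and 322 in N3, so it passed background in the stages where MYBPH did. PAX3, a factor of muscle and neural crest precursors, gave 53.3, 1065, 1197, 1657 and 1888 in the same order. MEF2C was 2.21-fold and LBX1 at least 2.13-fold higher in N3 than in N2, while MYF5, MYF6 and PAX7 stayed below the floor on all arrays.

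Of 18 genes for excitation, calcium handling and the neuromuscular junction with a probe set, 11 were measured in N3 over N2, and 3 were higher and 0 lower, with a median of 0.55. The shares over all measured genes were 4.78% and 2.19%. The acetylcholine receptor subunit gene CHRNA1 was 4.81-fold higher (115 in N2 and 556 in N3), the calcium store gene CASQ2 3.74-fold (530 and 1982) and the junctional protein gene JPH2 2.1-fold. Related genes of the list did not share this. JPH1 gave 120 in N2 and 116 in N3, and CASQ1, CHRND, CHRNE, CHRNG and MUSK lay below the floor on both arrays. Of 10 muscle energy genes with a probe set, 7 were measured, and 1 was higher, the brain-type creatine kinase gene CKB (4174 and 8829). The median was 0.23 in that list, and 0 were lower.

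Markers of other cell types gave the following values beside these. Of 12 heart genes with a probe set, 10 were measured in N3 over N2, with TNNT2 2.88-fold higher and 2 lower, and HAND1 gave 1295 in N2 and 280 in N3. The summed heart signal was 26120 in EB, 6231 in N2 and 7630 in N3, and 10 of the 12 genes lay above the floor in N3. The share of heart muscle in the TNNC1 and ACTN2 signals was not tested. Of 8 somite genes, 3 lay above the floor in N3, and 0 of 4 measured ones were past 2-fold in N3 over N2. Of 11 smooth muscle and fibroblast genes, 0 were past 2-fold in that step. Among all measured genes, 4.78% were at least 2-fold higher and 2.19% lower in that step. Of 14132 named genes, 9950 lay above the floor in N3.

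Neuronal markers gave signal as well. All 7 with a probe set lay above the floor in N3, as did 9950 of 14132 named genes. In ESC 5 of them already did, and in EB 6. SYT1 gave 4177 in ESC and 2985 in N3, and ELAVL3 reached only 123.5 in N3. In N3 over ESC, 5 of the 7 were at least 2-fold higher and 0 lower, beside 17.2% and 16.4% of all measured genes. In N3 over N2, 1 of the 7 was at least 2-fold higher, the neuronal tubulin gene TUBB3 (4.17-fold), and 0 were lower. The shares of all measured genes were 4.78% and 2.19%, and the median log2 ratio of the 7 was 0.71. Of 7 serotonin neuron genes with a probe set, 3 lay above the floor in N3 (GATA3 at 895, SLC18A2 at 150.3 and GATA2 at 107), and 0 of 3 measured ones were past 2-fold in N3 over N2. The N3 signal of GATA2 lay under the brightest foreign reporter on that array, at 112. TPH1 and TPH2, which encode the enzyme that begins serotonin synthesis, lay below the floor on all 5 arrays, and FEV, the serotonin neuron factor, gave 121 in N1 and 85 in N3.

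The genes most like the group were found from its median profile over the 8 genes that reached 200 on some array. Each profile was centred on its own mean log2 signal, and likeness was the root mean square difference over the 5 stages, among 6072 genes with a range of at least 1 on the log2 scale. The 10 nearest were NEUROD6, ART4, MYOM2, PRDX6, LRFN3, SLIT1, KCNJ4, ADH7, JAKMIP1 and TEDC1, at differences of 0.16 to 0.2. MYOM2, an M-band protein gene, is the 1 listed sarcomere gene among them, at 87.5 in N2 and 279 in N3. The 8 genes themselves lay farther from that profile, at 0.32 (TNNI2) to 1.42 (TNNC2), so it describes no member closely. All 10 nearest genes had their highest signal in N3, between 254 and 304, and at most 157 at any other stage.

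Nearest genes of 4 single members were added after the data were seen, on the same measure. Nearest to MYBPH were OPRL1, CAV3, C6H5orf58, HSPB3 and PSD2, and of these the muscle caveolin gene CAV3 gave 34.7 in ESC, 134 in EB, 60.1 in N1, then 129.5 in N2 and 814 in N3. Nearest to ACTN2 were ROBO3, CSRP3, MAGEL2, FMOD and SLC1A3, and of these only CSRP3 is a listed muscle gene. Nearest to TNNC1 were MYL4, LOC699612, PKIB, LOC706293 and FAM241A, and of these only MYL4 is listed. MYL4 gave 147, 1888, 1402, 248 and 1164 over the 5 stages. The 5 nearest to TNNC2 were GALNT1, LINGO1, OTUD3, FEZ1 and KIF5C, at differences of 0.71 to 0.77, and none is a listed muscle gene.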

How the data were processed

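The authors deposited array intensities on a linear scale, 1 value per probe set and array, for 5 Affymetrix rhesus arrays. GCOS 1.0 is named in the submitters' processing notes, while its signal algorithm and scaling target, and any detection calls, were not given in the sources used here. The deposited trimmed means were 199.1 to 199.3, so arrays were already scaled to a common level. Here each array was multiplied by 2.508 to 2.511 to a trimmed mean of 500, and log2 was taken after a floor of 100 (Python 3.11.15, pandas 2.3.3). Control probe sets (158 of 52865) were left out. Per GEO's annotation of the platform, which may be outdated, there were 24969 probe sets with 1 symbol, 361 with several and 27535 unlisted, and 24629 Entrez identifiers matched RefSeq with 0 symbols updated. Each gene was represented by its brightest probe set (mean log2 signal over the 5 arrays). Coordinates and sequences were not used here.

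The 10 genes and 11 gene lists (157 genes, 124 with a probe set) were chosen with earlier results of these data known. Genes named from a list were up to 6 with the largest difference of at least 2-fold in the comparison described. The calculation was checked on simulated data.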

Additional observations from a re-analysis of the deposited data

How the results depend on the processing

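No paired analysis was possible with 1 array a stage, which limits precision throughout. Background limits TTN, which has no ratio, all ratios of TNNI2 and the CKM probe set used, and those of TNNT3, TNNC1, TNNC2 and MYBPH written as "at least". TNNC2, ACTN2, MYBPH and TNNC1 were at least 2-fold higher in N3 than in N2 in 9 of 9 alternatives (scalings, floors and probe set rules), TNNI2 and TNNT1 in 8 of 9, and TNNT3 in 6 of 8. Not all of these could differ from the main result. TNNC2, MYBPH, TNNC1 and TNNI2 have a single probe set each, so the probe set rules could not change their ratios. The floors of 50 and 200 could not change those of TNNC2 (354 in N2 and 3537 in N3), ACTN2 (453 and 1533) and TNNT1 (977 and 2260). The values as deposited could hardly change these either, since all arrays had nearly the same rescaling factor. TNNI2 had a log2 ratio of 0.80 with values as deposited, where the same floor lies higher relative to the signals, and TNNT1 had 0.89 with the median of its probe sets. The count of 4 genes at least 2-fold higher in N3 than at each other stage, a measure chosen after the data were seen, was 3 to 4 in 10 alternatives.

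With N1 in place of N2, chosen after seeing the data, 4 genes were higher and 1 lower in N3, instead of 7 and 0. With EB in place of ESC, 5 were higher and 2 lower in N3, instead of 5 and 1. The TNNC1 log2 ratio went from 2.15 to -1.01. Other counts under alternatives lack an all-gene share and describe the group only. At 4-fold, 4 were higher in N3 over N2, and 1 higher and 1 lower in EB over ESC. There were 0 lower in N1 over EB and 0 past 4-fold in N2 over N1. With values as deposited, 1 was higher and 0 lower in EB over ESC and 0 higher in N2 over N1, and the N3 over ESC median was 1.07. With hybridisation controls, which put the median of all measured genes at 0.41 in N1 over EB and -0.57 in N2 over N1, the medians of the group were 0.48 and -0.90, and 1 gene was higher in each of these steps. Equal medians gave 2 lower in N1 over EB. A floor of 50 gave 2 higher in N1 over EB, as did no floor, which also moved the N3 over N2 median to 2.90. A floor of 200 gave 1 higher and 1 lower in EB over ESC, 1 higher in N2 over N1, and medians of -0.86 in N2 over N1 and 1.26 in N3 over ESC. The median of probe sets gave 1 higher and 1 lower in EB over ESC and 1 higher in N2 over N1. Leaving out probe sets that can bind related transcripts, 1 was lower in EB over ESC and the N2 over N1 median was 0.32. No single-gene ratio of at least 2-fold changed direction under the 9 alternatives. CKM, under 2-fold, turned from -0.32 to 0.50 with hybridisation controls, 0.75 with a floor of 50 and 0.74 with no floor in N3 over N2. The cause of each move was not tested.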
